A study of Mus musculus with 15 samples.

Results

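The mouse olfactory epithelium was compared at 7 days and at 1 day after bilateral olfactory bulbectomy (OBX), the surgical removal of both olfactory bulbs, on 6 of the 15 arrays of the series, 3 from each day. Of 12422 probe sets that were not array controls, 7091 were called present on at least 3 of these 6 arrays and were tested. Each array carried RNA pooled from 3 male C57Bl/6 mice, aged 6 weeks per the labels, with 5 µg from each mouse, hybridised to an Affymetrix MG_U74Av2 array. The other 9 arrays, 3 each from untreated mice, sham-operated mice at day 5 and OBX mice at day 5, are given beside the results for description. No sham group of day 1 or day 7 was analysed here, so effects of surgery and of the loss of the bulbs cannot be told apart at these days. Nothing in the labels says how the pools of a group were collected, and p-values measure the spread between these pools.

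The olfactory bulb is the target of the axons of olfactory sensory neurons, and these neurons die by apoptosis after it is removed. The epithelium replaces them throughout life from basal progenitors, which divide and pass through an immature, axon-growing stage before they make the proteins of odour transduction. Sustentacular cells support the neurons, Bowman glands secrete mucus, and macrophages clear dying cells. In whole tissue, fewer cells of a type and less RNA per cell cannot be told apart.

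Between day 1 and day 7, some transcripts of odour transduction and of neuronal secretion fell. Many genes for dividing cells rose, with some for progenitors of neurons and for class I and class II antigen presentation. Several injury-associated transcripts that were high at day 1 fell. In the limma test, 404 probe sets rose (5.70% of those tested) and 366 fell (5.16%), or 10.9% in all, at a Benjamini-Hochberg adjusted p under 0.05. The 2 groups of 3 arrays did not overlap for 30.6% of all probe sets tested, and for each of the 770 that passed. Most changes were moderate: the median size was 0.57 on the log2 scale, 55 probe sets rose and 52 fell by at least 2-fold, and the median over all probe sets was 0.008. By the brightest probe set of each of 5493 genes, 329 genes rose (5.99%) and 280 fell (5.10%), and these shares are the background for the gene counts below. A probe set present on 1 of the days alone entered the test through that day, and 27 that rose had no present call at day 1 while 7 that fell had none at day 7.

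Arrays correlated at 0.980 or more within day 1 and within day 7, and the first principal component (50.6% of the variance) placed day 1 between −16.9 and −12.9 and day 7 between 12.6 and 15.7. Scan day followed the groups almost completely: OBX day 1 replicates 1 and 2 were scanned on the first day with the untreated and sham arrays, and OBX day 1 replicate 3 on the second with the OBX day 5 and day 7 arrays. The OBX day 7 arrays had a fluidics run of their own, which cannot be told apart from day 7. Against OBX day 1 replicate 3 alone, within the second scan day, the median ratio of the change to that over all 6 arrays was 0.99 for the 770 probe sets. Each kept its direction there, which was fixed in advance because its 2 groups of arrays did not overlap. These arrays also chose the 770, so neither value tests an effect of scan day. With scan day as a block, 184 of the 770 passed. Of markers for other tissues, 8 of 9 skeletal muscle genes were present on none of the 6 arrays. Of 6 brain or bulb markers on the array, Th, Gad2 and Slc1a2 were present on none. Gad1 was present on 2, Tbr1 on 1 and Eomes, by its brighter probe set, on 3. Of 7 horizontal basal cell markers, Krt5, Krt14, Krt15 and Itgb4 were present on none of the 6 arrays, and Trp63, Icam1 and Itga6 on all 6. The summed signal of 4 mature neuron markers on the array was 77770 to 83503 at day 1 and 36973 to 41271 at day 7, and that of 6 progenitor markers was 16795 to 18847 and 22682 to 26552. Most of the latter sum was Sox2, at means of 12560 and 14450, which did not pass (0.20, adjusted p = 0.13).

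**Figure D1:**
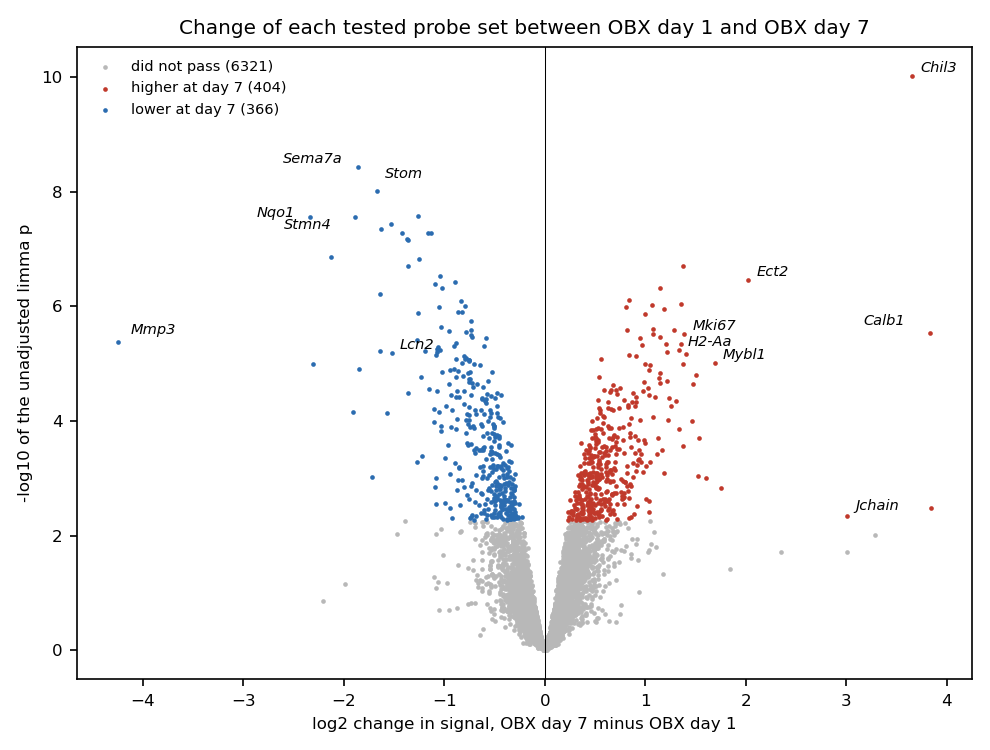
Each point is a probe set, with the log2 change in signal from OBX day 1 to OBX day 7 (horizontal) and minus log10 of the unadjusted limma p (vertical). Red points (404) were higher at day 7 and blue points (366) lower at an adjusted p under 0.05, and grey points did not pass. Mmp3 lies farthest to the left at −4.25 and Chil3 highest, with a change of 3.65.

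Some genes of the mature neuron fell, and 0 of those tested rose. Olfactory marker protein, Omp, had signals of 31600.3, 28359 and 27411 on the 3 day 1 arrays and of 13208, 13146 and 13523 on the 3 day 7 arrays. Each day 7 array lay below each day 1 array by a wide margin, a 2.19-fold difference (−1.13 ± 0.07 SE on the log2 scale, adjusted p = 3.4e-05). The cyclase Adcy3, which makes cAMP when an odorant binds its receptor, read 5244, 4638 and 5306 at day 1 and 2009, 1826 and 2024 at day 7 (−1.37 ± 0.09, adjusted p = 3.8e-05). Cnga2, a subunit of the cAMP-gated channel that opens next, fell by 1.04 ± 0.08 (adjusted p = 0.00012). Of 35 genes on the mature neuron and odour transduction list, 15 were on the array and 14 were tested. Of these 14, 6 fell and 0 rose, with a median change of −0.35 against 0.01 over all genes. Within the second scan day 6 genes of the list fell past the threshold, and with scan day as a block 6 did. The Ebf factors of the list, Ebf1, Ebf2 and Ebf3, which bind promoters of olfactory genes, did not pass, with changes of 0.24, 0.02 and 0.09. They are named after their values were seen.

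Nqo1, a quinone reductase found in neurons of the dorsal zone of the epithelium, fell the most among genes of that list. Its signal was 2080.1, 2421 and 2684 at day 1 and 482.4, 414.2 and 529.5 at day 7, so the groups were far apart (−2.33 ± 0.14, adjusted p = 3.3e-05). Its brighter probe set fell by 1.84 ± 0.22 (adjusted p = 0.00096). Stom, a membrane protein of the stomatin family, fell from a mean of 28570 ± 2560 (SD, n = 3) to 8964 ± 707 (−1.67 ± 0.09, adjusted p = 2.3e-05), while another probe set of it changed by −0.41 and did not pass (adjusted p = 0.45). Drd2, the dopamine D2 receptor, fell 3.09-fold, and Olfm1, a secreted olfactomedin of neurons, fell 3.11-fold (adjusted p = 3.4e-05 and 0.00018). Clip4, of a family of microtubule-binding proteins, fell 4.38-fold (adjusted p = 6.9e-05).

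Synaptic and secretory genes moved the same way in part. Chga, chromogranin A of dense-core secretory granules, had signals of 7365, 8069 and 7163 at day 1 and 2665, 3110.4 and 2699 at day 7 (−1.42 ± 0.09, adjusted p = 3.4e-05). Syt1, the calcium sensor of vesicle release, fell by 1.06 ± 0.11 and Dnm1, the dynamin of vesicle retrieval, by 0.78 ± 0.08 (adjusted p = 0.00059 and 0.00045). Of 25 tested genes on that list (49 in all), 7 fell and 2 rose, with a median of −0.30. One that rose was Scg2, secretogranin II, also a granule protein, which went from 784.8 ± 19.8 to 1664 ± 150 (1.08 ± 0.11, adjusted p = 0.00044). Within the second scan day 2 genes of the list fell and 1 rose past the threshold.

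Among 18 tested ion channel and calcium-binding genes, 3 fell and 1 rose. Hcn2, a hyperpolarisation-activated channel, fell by 1.19 ± 0.13 (adjusted p = 0.00065). Calb1, the calcium buffer calbindin, went the other way and by much more. It read 92.3, 29.7 and 73.5 at day 1, with no present call, and 703.9, 956.4 and 860.2 at day 7, at least 12.9-fold higher (adjusted p = 0.00046). Its mean was 569.4 in untreated, 851.5 in sham and 532.0 in OBX day 5 mice, so day 1 had the lowest mean of the 5 groups. It was called present on 1 of 3 untreated, 2 of 3 sham and 1 of 3 OBX day 5 arrays.

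Odorant receptors gave no change that passed. Of 21 on the array 8 were tested, 0 of which passed in limma (adjusted p of 0.068 or more), with a median of −0.02. Without OBX day 1 replicate 2, Olfr1509 and Olfr15 passed as higher at day 7 (adjusted p = 0.032 and 0.028). Olfr1509 read 1368, 1660.3 and 1361 at day 1 and 1926, 1850.5 and 1794 at day 7 (0.35 ± 0.11, adjusted p = 0.068), and Olfr15 differed by 0.51 ± 0.18 (adjusted p = 0.11). These signals lay in the opposite direction to that of Omp and Adcy3 on the same arrays. The difference in direction was not tested.

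**Figure D2:**
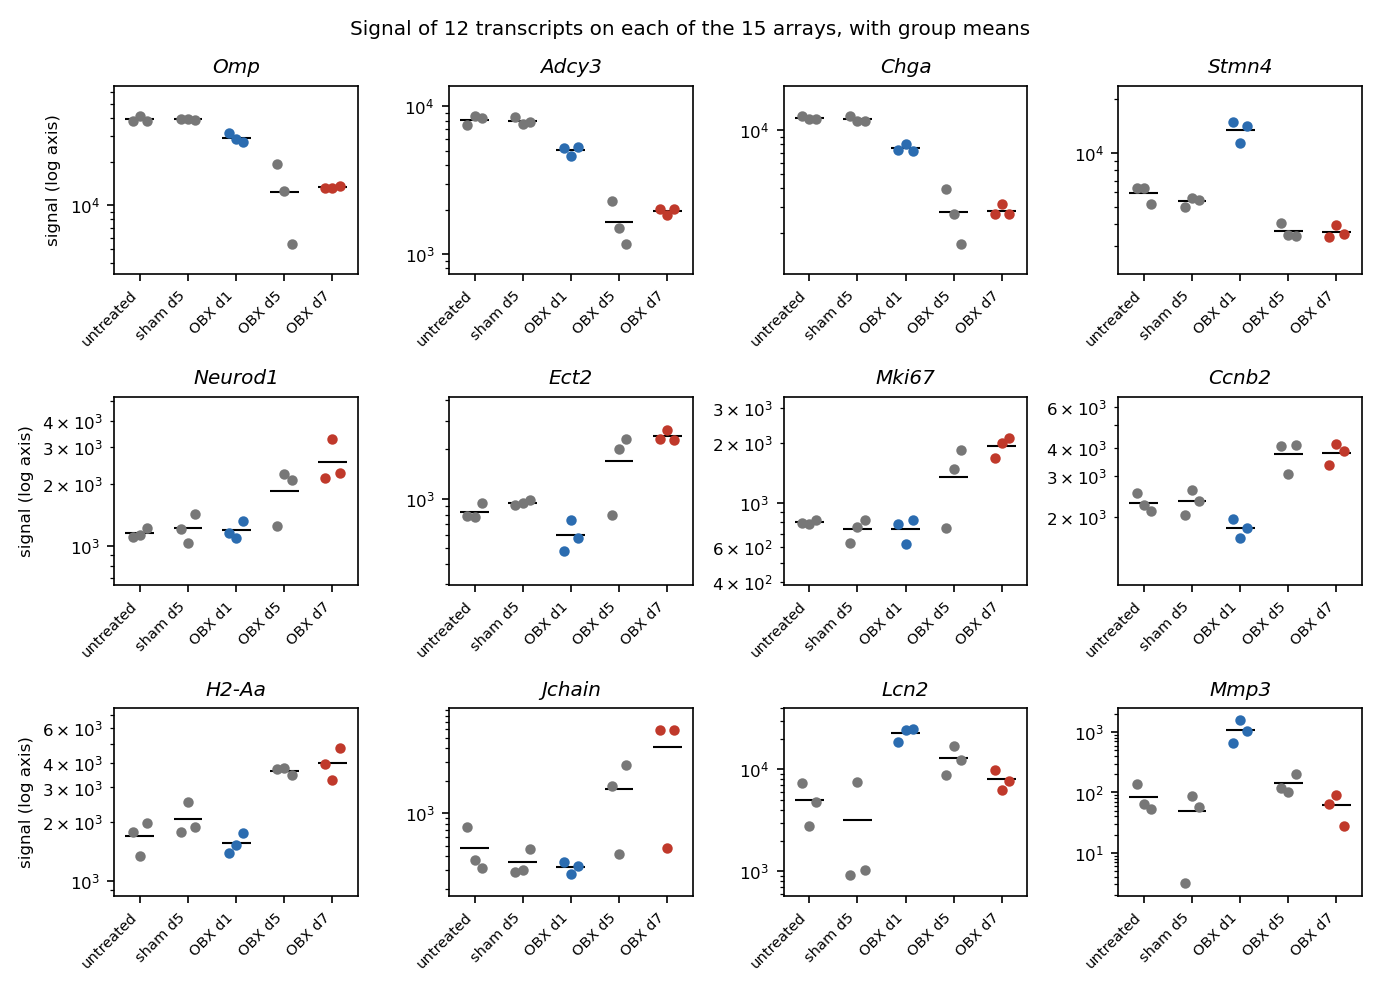
Signal on a log axis (vertical) for 12 transcripts on each of the 15 arrays, by group (horizontal), with blue points for OBX day 1, red points for OBX day 7, grey points for the other groups and a bar at each group mean. Omp, Adcy3 and Chga are lower at day 7 than at day 1, the cell division genes Ect2, Mki67 and Ccnb2 are higher, Stmn4, Lcn2 and Mmp3 peak at day 1, and Jchain is low on 1 of the 3 day 7 arrays.

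A pair of genes linked to axons were high at day 1 and low at day 7. Stmn4, a stathmin that binds tubulin in neurons, had signals of 14842, 11390 and 14129 at day 1 against 3360.2, 3954 and 3519 at day 7 (−1.89 ± 0.11, adjusted p = 3.3e-05). Its untreated and sham means were 5975 and 5346, below each day 1 array and above each day 7 array. Sema7a, a membrane-bound semaphorin that promotes axon outgrowth, behaved alike, at 6727, 7907 and 7283 at day 1 and 2130.3, 1940.2 and 1970.4 at day 7, with an untreated mean of 4140 (−1.86 ± 0.09, adjusted p = 1.3e-05). Some other genes of immature neurons rose by small amounts. Gap43, a growth cone protein, was at 8858, 9431 and 9224 and then at 12407, 14055 and 11997 (0.48 ± 0.08, adjusted p = 0.0045), and Marcks, an actin-linked substrate of protein kinase C, rose by 0.54 ± 0.08 (adjusted p = 0.0025). Of 34 tested genes on the immature neuron and axon growth list (64 in all), 7 rose and 2 fell, with a median of 0.20. Within the second scan day 0 of them rose past the threshold, with a median of 0.18.

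Several transcription factors of neuronal progenitors rose and 1 fell. Neurod1, a factor of late progenitors, read 1153.0, 1094 and 1321 at day 1 and 2126, 3280 and 2262 at day 7, with no overlap (1.08 ± 0.16, adjusted p = 0.0032). Neurog1, which acts before Neurod1 in neuronal commitment, rose from 521.6 ± 155.0 to 1031 ± 232.0 (1.01 ± 0.24, adjusted p = 0.028). That call was lost without OBX day 1 replicate 2 or 3 or OBX day 7 replicate 1 or 2 (adjusted p of 0.052 to 0.086). Hes6, which favours neuronal differentiation, rose 1.95-fold and Sox11, a factor of young neurons, 1.64-fold (adjusted p = 0.00058 and 0.0016). Mybl1, the A-Myb transcription factor, which is known to activate cell cycle genes, rose 3.23-fold from signals of 198.5, 170.0 and 149.1 to 528.2, 677.6 and 474.6 (adjusted p = 0.00083). Of 29 tested genes on the progenitor list (47 in all), 9 rose and 1 fell, with a median of 0.22. The one that fell was Eomes, a T-box factor, which was at least 3.28-fold lower at day 7 by a probe set with no present call there (adjusted p = 0.015, and 0.059 and 0.065 without OBX day 1 replicate 1 or 3). Its dimmer probe set, called present on the 6 arrays, fell by 1.57 ± 0.23 (adjusted p = 0.0029). Kit, the receptor of stem cell factor, rose by 0.78 ± 0.12 (adjusted p = 0.0041). Within the second scan day 3 genes of the list rose past the threshold.

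The mitosis list had the largest share of members that passed among the 33 lists, with 75.0% of those tested. Ect2, the exchange factor that activates RhoA for cytokinesis, had signals of 477.1, 741.1 and 576.5 at day 1 and of 2307, 2609 and 2284 at day 7 (2.03 ± 0.16, 4.07-fold, adjusted p = 0.00013). Mki67, the Ki-67 protein of dividing cells, read 787.6, 622.9 and 818.3 and then 1690, 2000.2 and 2127 (1.39 ± 0.14, adjusted p = 0.00046). Its other probe set was not separated between days (−0.30, adjusted p = 0.47). Ccnb2, cyclin B2 of mitotic entry, rose from 1958, 1631 and 1797 to 3359, 4134 and 3873 (1.08 ± 0.11, adjusted p = 0.00046). Of 44 tested genes on the mitosis list (59 in all), 33 rose and 0 fell, with a median of 0.76 and a range of −0.31 to 2.03. Within the second scan day 13 still passed and the median was 0.81. With scan day as a block, 17 did.

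Weakly detected members of that machinery rose as well. Bub1, a kinase of the spindle checkpoint, went from 161.3, 130.0 and 138.6 to 357.3, 430.2 and 430.1 (adjusted p = 0.0011). Tacc3, a spindle protein, rose 3.04-fold over 6 arrays but 1 of its day 1 arrays, the one of the second scan day, was higher than the others at 127.7 against 63.7 and 51.3, and within that scan day its change was 0.83 and did not pass (adjusted p = 0.17). Its call was also lost without OBX day 1 replicate 1 or OBX day 7 replicate 1 (adjusted p = 0.053 and 0.056). Cdca5, sororin of sister chromatid cohesion, had no present call at day 1 and was at least 2.89-fold higher at day 7 (adjusted p = 0.015). More strongly detected was H2ax, the histone variant phosphorylated at DNA breaks. It rose 1.76-fold, from 4042 ± 101 to 7138 ± 564 (adjusted p = 0.00044).

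Of the DNA replication genes tested, 12 rose and 26 did not pass. Rrm2, the small subunit of ribonucleotide reductase, went from 426.0, 556.6 and 459.7 to 919.7, 1072 and 957.9 (1.04 ± 0.14, adjusted p = 0.0018), and Rrm1, the large subunit, rose 2.03-fold (adjusted p = 0.0016). Hells, a chromatin helicase, rose 2.18-fold (adjusted p = 0.0056). Pcna, the sliding clamp of the replication fork, read 3766, 4972 and 4519 at day 1 and 4893, 5251 and 5186 at day 7. Its groups overlapped and it did not pass (0.22 ± 0.10, adjusted p = 0.23). Of the 38 tested (58 in all), 0 fell and 5 lay below 0, with a median of 0.33, and 2 passed within the second scan day.

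Promoters of the mitosis genes that rose held 2 short motifs more often than RefSeq promoters in general. Windows of 300 bases, 250 before the annotated start and 50 after it, were taken from RefSeq on build GRCm38.p6, and 27 of the 33 genes had 30 windows. TTTGAA, the core of the cell cycle homology region bound by the DREAM complex, was in 76.7% of the 30 windows and in 17.9% of all 32851. CCAAT, the box bound by NF-Y, was in 80.0% and 37.4%. Both were sought on both strands, and a match of one can share an end base with a match of the other. Of the 12 replication genes that rose, 11 had 14 windows, with TTTGAA in 7.14% and CCAAT in 64.3%. A match is a description of these letters and not a site shown to be bound. Ccnb2, Ect2 and Mki67 are printed because they hold both motifs more than once, Rrm2 for a replication gene that holds the NF-Y box and not the other motif, and H2-Aa for a class II gene. Capitals mark matches of the motifs sought, on either strand. Ccnb2 lies at chr9:70421505-70421804 (minus strand), 1 of the starts of Ect2 at chr3:27153805-27154104 (minus strand), Mki67 at chr7:135716330-135716629 (minus strand), Rrm2 at chr12:24708004-24708303 (plus strand) and H2-Aa at chr17:34287774-34288073 (minus strand).
Ccnb2: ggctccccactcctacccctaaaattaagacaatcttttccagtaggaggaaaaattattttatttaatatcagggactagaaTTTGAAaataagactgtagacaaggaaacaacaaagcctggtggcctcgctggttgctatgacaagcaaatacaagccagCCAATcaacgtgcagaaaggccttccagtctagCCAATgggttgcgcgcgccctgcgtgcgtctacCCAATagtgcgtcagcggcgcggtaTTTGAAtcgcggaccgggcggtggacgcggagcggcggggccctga
Ect2: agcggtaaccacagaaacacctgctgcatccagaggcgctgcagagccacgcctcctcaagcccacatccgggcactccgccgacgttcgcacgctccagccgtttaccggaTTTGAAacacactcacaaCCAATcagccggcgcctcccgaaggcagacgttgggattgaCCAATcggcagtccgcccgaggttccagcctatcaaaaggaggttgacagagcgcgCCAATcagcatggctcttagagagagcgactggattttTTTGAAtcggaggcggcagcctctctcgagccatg
Mki67: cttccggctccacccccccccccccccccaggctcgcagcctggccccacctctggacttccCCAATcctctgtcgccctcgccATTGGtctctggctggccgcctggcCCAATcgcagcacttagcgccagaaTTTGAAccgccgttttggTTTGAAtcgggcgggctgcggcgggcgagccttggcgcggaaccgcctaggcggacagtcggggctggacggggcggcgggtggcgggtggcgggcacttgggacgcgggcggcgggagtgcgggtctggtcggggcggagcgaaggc
Rrm2: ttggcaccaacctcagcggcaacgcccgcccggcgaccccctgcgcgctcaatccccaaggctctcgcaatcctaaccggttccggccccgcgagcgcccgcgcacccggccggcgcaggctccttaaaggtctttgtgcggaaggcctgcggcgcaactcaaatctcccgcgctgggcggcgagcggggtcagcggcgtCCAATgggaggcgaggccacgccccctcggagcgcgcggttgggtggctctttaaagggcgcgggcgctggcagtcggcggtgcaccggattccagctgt
H2-Aa: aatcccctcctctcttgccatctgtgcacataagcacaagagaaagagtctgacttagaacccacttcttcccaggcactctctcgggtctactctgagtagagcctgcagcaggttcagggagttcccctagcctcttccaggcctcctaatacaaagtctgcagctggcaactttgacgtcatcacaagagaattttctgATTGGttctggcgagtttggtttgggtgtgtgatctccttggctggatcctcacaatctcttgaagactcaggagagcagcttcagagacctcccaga

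A few chromatin genes rose. Ezh2, the methyltransferase of Polycomb repression, rose 1.55-fold from 1586 ± 31.1 to 2464 ± 162.0 (adjusted p = 0.0021). Hmgb3, a chromatin architectural protein, rose by 0.51 ± 0.09 and Chd4, the remodeller of the NuRD complex, by 0.36 ± 0.06 (adjusted p = 0.0056 and 0.0064). Of 55 tested genes on the chromatin and gene silencing list, 9 rose, 0 fell and 46 did not pass, with a median of 0.14. With scan day as a block the calls of Ezh2, Hmgb3 and Chd4 were lost (adjusted p = 0.051, 0.11 and 0.076).

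**Figure D3:**
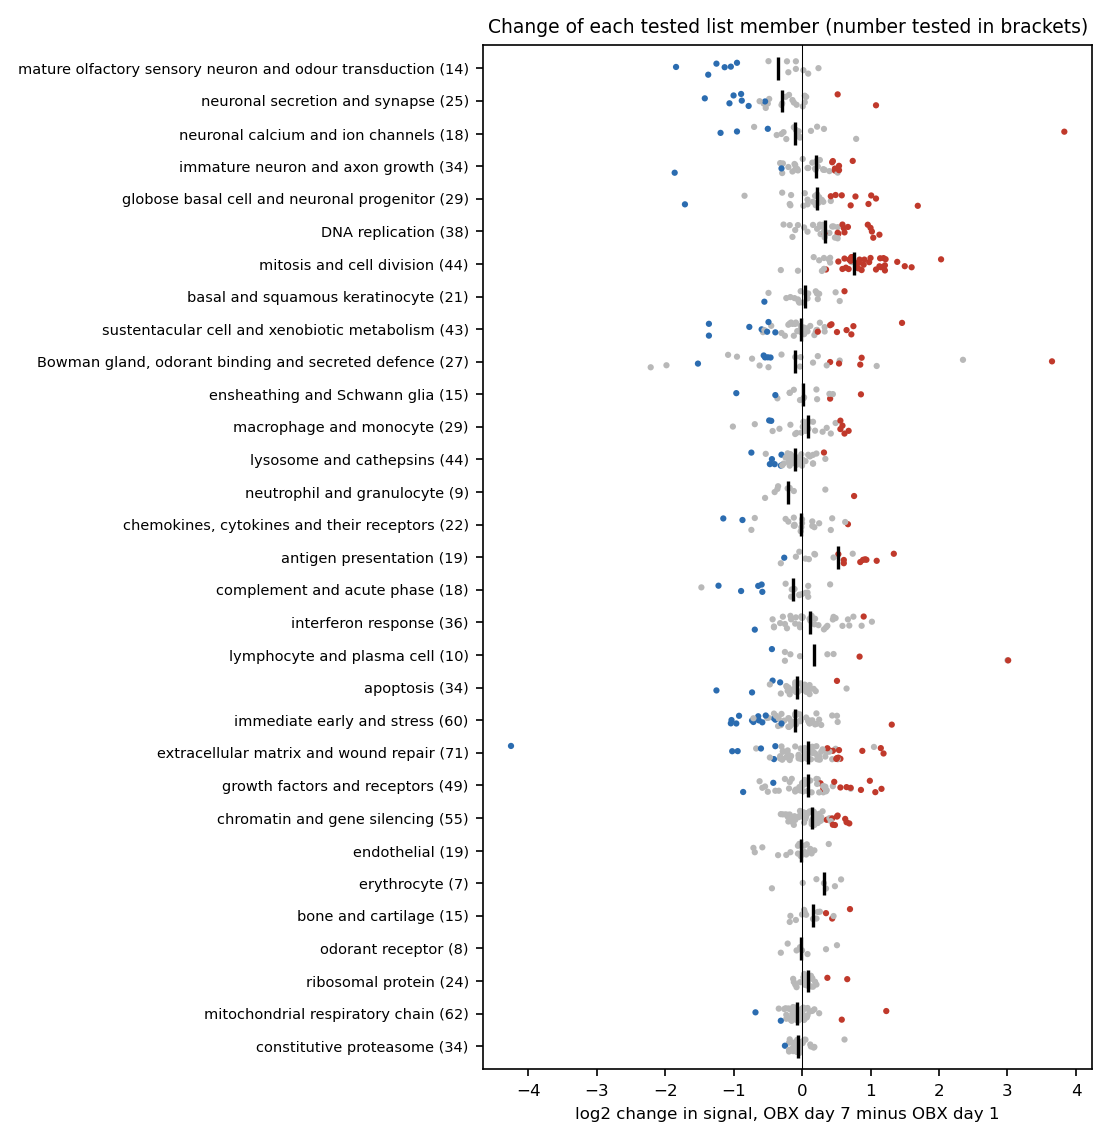
Each point is a tested gene of a list (vertical, with the number tested in brackets), placed by its log2 change from OBX day 1 to OBX day 7 (horizontal), with red for genes that rose, blue for genes that fell, grey for genes that did not pass and a black bar at the list median. The mitosis list has its median at 0.76 and the mature neuron list at −0.35, while the odorant receptor list has its median at −0.02.

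Several antigen presentation genes rose, of class I as well as class II. H2-Aa, the alpha chain of a class II molecule that presents peptides to helper T cells, read 1391, 1533 and 1767 at day 1 and 3932, 3268 and 4760.4 at day 7 (1.34 ± 0.14, adjusted p = 0.00064). Cd74, the invariant chain that guides class II molecules, went from 5564, 5558 and 7205 to 13454, 10485 and 15361 (1.09 ± 0.15, adjusted p = 0.0019), and H2-Eb1, a class II beta chain, rose 1.92-fold (adjusted p = 0.0096). Of 19 tested genes on the antigen presentation list (37 in all), 9 rose and 1 fell, with a median of 0.53. The 9 were H2-Aa, Cd74, H2-Eb1 and H2-Ab1 of class II, H2-D1, H2-K1 and H2-Q1 of class I, and Cd1d1 and Azgp1. For 6 of the 9, against 85 of all 329 genes that rose, OBX day 7 replicate 2 was the lowest of the day 7 arrays. Without that array 9 rose with a median of 0.60. Within the second scan day 0 of the genes passed, and the median was 0.39. The OBX day 1 array of that scan day was the highest of its group for H2-Aa, Cd74 and H2-Eb1.

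Macrophage genes did not move as a group between day 1 and day 7. Cd68, a lysosomal glycoprotein of macrophages, fell from 2184, 2155 and 1899 to 1624, 1361 and 1494 (−0.48 ± 0.10, adjusted p = 0.018, and up to 0.062 with a replicate left out), whereas Lyz2, the lysozyme of myeloid cells, rose from 3203, 3919 and 3606 to 5446, 5387 and 5235 (0.59 ± 0.09, adjusted p = 0.0032). Ctss, a cathepsin that trims the invariant chain, rose by 0.56 ± 0.09 (adjusted p = 0.0043). Of 29 tested genes, 5 rose and 2 fell, with a median of 0.08, and the summed signal of 10 macrophage markers was 19993 to 20887 at day 1 and 21704 to 24570 at day 7. That sum, which includes Lyz2, was higher at OBX day 5, at 31296 to 32663. Ccr2, the chemokine receptor that brings monocytes into tissue, rose 1.59-fold (adjusted p = 0.015, and 0.053 to 0.058 without OBX day 1 replicate 3 or OBX day 7 replicate 1 or 2). Of 44 lysosomal genes, 6 fell and 1 rose. Among those that fell were Lgmn, the protease legumain, at −0.74 ± 0.09 and Ctsd, cathepsin D, at −0.44 ± 0.06 (adjusted p = 0.0012 and 0.0018).

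Some plasma cell transcripts were high on part of the day 7 arrays. Jchain, which joins secreted IgA and IgM, read 350.5, 274.7 and 326.2 at day 1 and 5893, 475.5 and 5886 at day 7. The groups did not overlap, but OBX day 7 replicate 2 lay near the day 1 arrays and the others far above them. The change was 3.01 ± 0.81 with an adjusted p of 0.045, and 4.22 without OBX day 7 replicate 2 (adjusted p = 1.6e-06). Leaving out any of the other 5 arrays instead ended the call (adjusted p of 0.11 to 0.12), and so did the scan day block (adjusted p = 0.30). Over its alternatives the adjusted p ran from 1.6e-06 to 0.44. Igha, the IgA heavy chain, named after its values were seen, followed the same arrays, at 886.2, 658.4 and 868.9 at day 1 and 22633, 707.5 and 16377 at day 7, and did not pass, with no present call at day 1 (3.00 ± 1.06, adjusted p = 0.11). The summed signal of lymphocyte and plasma cell markers was 2484 to 2898 at day 1 and 2630, 37060 and 47973 at day 7. Of 10 tested genes on the lymphocyte and plasma cell list (48 in all), 2 rose and 1 fell, with a median of 0.17. The one that fell was Xbp1 (−0.44 ± 0.10, adjusted p = 0.019, and up to 0.079 with a replicate left out). Cd3e, Cd3d, Cd79a and Cd79b of T and B cells were present on none of the 6 arrays. Ms4a1 of B cells was present on all 6, at means of 584.0 at day 1 and 491.6 at day 7, and did not pass (−0.25, adjusted p = 0.35). The part of lymphocytes and plasma cells in the other changes was not tested.

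Chil3, a chitinase-like lectin secreted by alternatively activated macrophages and by glands, had the smallest p of the comparison. Its signal was 1286, 1337 and 1555 at day 1 and 19712, 15130 and 17910.4 at day 7, a 12.6-fold rise (3.65 ± 0.11, adjusted p = 6.7e-07). Its mean was 1589 in untreated and 2383 in sham mice and 11100 at OBX day 5. The rise was 3.49 within the second scan day and passed there (adjusted p = 0.0018). Fcgbp, an IgG Fc-binding mucus protein, had no present call at day 1 and was at least 2.60-fold higher at day 7 (adjusted p = 0.00083).

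Some wound and acute phase transcripts that had been high at day 1 fell. Mmp3, the matrix protease stromelysin 1, read 671.1, 1572 and 1058 at day 1 and 64.1, 91.3 and 27.9 at day 7, where it had no present call, and was at least 18.5-fold lower (adjusted p = 0.00055). Its untreated and sham means were 85.2 and 49.8. Lcn2, a lipocalin that binds iron-carrying siderophores, had signals of 18544, 24493 and 25085 at day 1 and 9860.0, 6269 and 7773 at day 7 (−1.52 ± 0.17, adjusted p = 0.00066). A second probe set of Lcn2 differed by −0.10 (adjusted p = 0.75). Serpina3n, an acute phase protease inhibitor, fell from 30780 ± 1900.0 to 16780 ± 2610, still above its untreated mean of 7916 (−0.89 ± 0.11, adjusted p = 0.0011). Osmr, the receptor subunit for oncostatin M, fell 2.21-fold, and Lifr, a receptor subunit for leukaemia inhibitory factor, fell 1.83-fold (adjusted p = 0.0016 and 0.0017). Other probe sets of Lifr changed by −0.73, which passed, and by −0.85, which did not (adjusted p = 0.0067 and 0.068). Anxa1, annexin A1, a mediator that limits inflammation, went from 13778, 18233 and 18661 to 9013, 8505 and 8674 (−0.94 ± 0.11, adjusted p = 0.00098), and its 2 other probe sets fell by 1.03 and 1.05.

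Of 18 tested complement and acute phase genes, 5 fell and 0 rose. Of 60 tested immediate early and stress genes, 13 fell and 1 rose, with a median of −0.11. Cebpd, a transcription factor of the acute phase response, read 3649, 4742 and 4316 at day 1 and 2021, 2489 and 2036 at day 7 (−0.96 ± 0.12, adjusted p = 0.0014). Its relative Cebpb fell by 0.64 ± 0.07, and Dusp1, a phosphatase that switches off MAP kinases, by 0.73 ± 0.07 (adjusted p = 0.00084 and 0.00049). Trib3, a pseudokinase induced by endoplasmic reticulum stress, fell 2.06-fold (adjusted p = 0.00064). Srxn1, sulfiredoxin of the oxidative stress response, fell 3.11-fold from 960.3, 1257 and 1565 to 424.8, 403.2 and 366.6 (adjusted p = 0.00065). In the apoptosis list 4 of 34 tested genes fell and 1 rose. Bcl2l11, the death-promoting protein Bim, fell by 0.73 ± 0.10 and Bcl2l1, the survival protein Bcl-xL, rose by 0.51 ± 0.12 (adjusted p = 0.0018 and 0.028), the latter call lost without 5 of the 6 arrays in turn (adjusted p of 0.059 to 0.085).

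Genes that fell showed different patterns when set beside the 6 untreated and sham arrays. For 79 of the 280 genes that fell (28.2%), the 3 day 1 arrays lay above the 6 controls, and for 182 (65.0%) the 3 day 7 arrays lay below them, where over all 5493 genes these shares were 11.7% and 13.7%. The day 1 arrays were already below the controls for 26.1% of the genes that fell, against 8.28% of all, and the day 7 arrays were above them for 3.93%. The 6 mature neuron genes and 7 synaptic genes that fell were each below the controls at day 7. The 6 extracellular matrix genes that fell and 9 of the 13 stress genes were above the controls at day 1. Of the 329 genes that rose, 267 (81.2%) were above the controls at day 7, against 19.6% of all genes, including 31 of the 33 mitosis genes, and the day 1 arrays were below the controls for 15.5% and above them for 8.51%. The arrays of days 1 and 7 also chose these genes, so the counts are a description, and controls and day 7 lay on different scan days. OBX day 5 arrays did not choose them. Their mean was above the untreated mean for each of the 33 mitosis genes, and for 305 of all 329 genes that rose. It was below the untreated mean for each of the 6 mature neuron genes, and for 222 of all 280 that fell. The same shares over all 5493 genes were not computed for OBX day 5, so these counts have no background beside them. Untreated and OBX day 5 arrays were also scanned on different days. The OBX day 5 arrays had a wider spread (median SD 0.277 on the log2 scale, against 0.122 at day 7).

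Genes on the list of sustentacular cells and xenobiotic metabolism changed in both directions. Sult1d1, a sulfotransferase, fell from 5259, 4631 and 5511 to 1994, 2048 and 1953 (−1.36 ± 0.09, adjusted p = 3.8e-05), and Ptgr1, a prostaglandin reductase, fell 2.56-fold (adjusted p = 8.3e-05). Cyp1a1, a cytochrome P450 induced through the aryl hydrocarbon receptor, rose from 758.4, 964.3 and 803.0 to 1542, 2969 and 2695 (1.46 ± 0.22, adjusted p = 0.0035), and Fmo5, a monooxygenase, rose by 0.75 ± 0.10 (adjusted p = 0.0016). Of 43 tested genes, 8 rose and 7 fell, with a median of −0.02. Among 4 sustentacular cell markers on the array, Sult1d1 and Aldh1a7 fell, and Cyp2f2 and Cbr2 did not pass (−0.01 and −0.18, adjusted p = 0.96 and 0.53). With scan day as a block the call of Cyp1a1 was lost (adjusted p = 0.058), while Sult1d1, Ptgr1 and Fmo5 kept theirs. Slc22a2, an organic cation transporter, and Rgr, an opsin-like receptor of the eye, rose 2.77-fold and 2.59-fold (adjusted p = 0.0014 and 8.3e-05).

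Secreted gland proteins varied widely between arrays of a day. Of 27 tested genes on the Bowman gland and secreted defence list, 5 rose and 5 fell. Lcn4, a lipocalin of nasal glands named after its values were seen, read 229.1 on OBX day 7 replicate 1 and 13478 and 18712 on the others, against 16085 to 19377 at day 1 (−2.21, adjusted p = 0.35). Lcn3 did likewise, at 495.7 on that array and 8687 and 11676 on the others. Slpi, a secreted protease inhibitor, was close between arrays of a day and fell from 6132 ± 123.0 to 4152 ± 173.0 (−0.56 ± 0.07, adjusted p = 0.0013), and its dimmer probe set fell by 1.23.

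Some matrix and growth factor genes rose, and most of those tested did not pass. Fmod, the collagen-binding proteoglycan fibromodulin, read 1028, 965.5 and 891.4 at day 1 and 1984, 2310 and 2303 at day 7 (1.19 ± 0.11, adjusted p = 0.00025), and Bgn, the proteoglycan biglycan, rose by 0.56 ± 0.06 (adjusted p = 0.00076), while its dimmer probe set changed by 0.29 and did not pass (adjusted p = 0.12). Of 71 tested matrix genes, 11 rose and 6 fell, with a median of 0.08. Igfbp2, a binding protein for insulin-like growth factors, went from 1746, 1735 and 1510.3 to 3498, 3678 and 3290 (1.07 ± 0.09, adjusted p = 0.00024). Sfrp2, a secreted Wnt modulator, rose 1.99-fold to 5795 ± 354, near its untreated mean of 5378 (adjusted p = 0.00027). Kitl, the ligand of the receptor Kit of progenitors, rose 1.57-fold (adjusted p = 0.0017). Of 49 tested growth factor and receptor genes, 10 rose and 2 fell, with a median of 0.08.

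**Figure D4:**
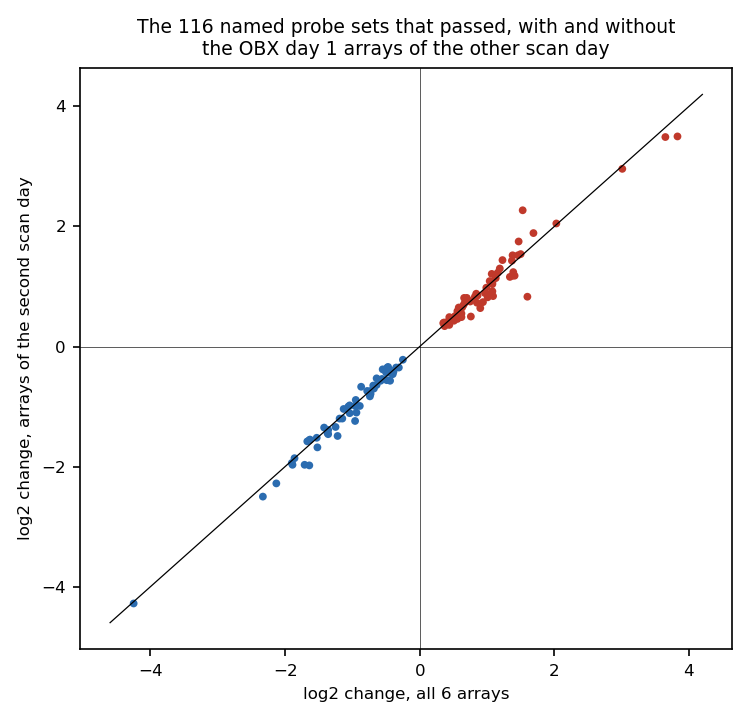
The log2 change of the 116 named probe sets that passed, over all 6 arrays (horizontal) and within the second scan day, with OBX day 1 replicate 3 as the only day 1 array (vertical); the line marks equal values. Each point keeps its sign, as it must where the groups of arrays do not overlap. Tacc3, which falls to 0.83 within the scan day, and Cdca5, at 1.53 and 2.27, lie farther from the line than most.

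Several lists showed few calls at this size of experiment. Of 19 endothelial and 7 erythrocyte genes tested, 0 passed in limma, with Sele, E-selectin, at −0.71 ± 0.27 (adjusted p = 0.13) and Hbb-b2, a beta globin, at 0.57 ± 0.21 (adjusted p = 0.12) among the smallest p. Foxj1, the master factor of motile cilia, differed by −0.05 ± 0.09 (adjusted p = 0.79). Of 36 interferon response genes, 1 rose, Gbp2, a guanylate-binding protein (0.90 ± 0.16, adjusted p = 0.0082), and 1 fell, Ifit1 (−0.69 ± 0.18, adjusted p = 0.045, and 0.051 to 0.12 with any 1 array left out). Ribosomal protein genes (2 rose and 0 fell of 24), respiratory chain genes (2 rose and 2 fell of 62) and proteasome subunits (0 rose and 1 fell of 34) had few calls.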

How the data were processed

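Transcript levels were measured on 15 Affymetrix MG_U74Av2 arrays. The authors deposited 1 signal intensity per probe set, linear and scaled to a common 2% trimmed mean of about 1500.6; the software is not given in the sources used here. Deposited detection calls, of a kind other than a measurement, served as the filter, and the deposited array station settings gave scan day and fluidics run. Signals (floor 1) were log2 transformed, and the 6 OBX day 1 and day 7 arrays were fitted in limma 3.58.1 (R 4.3.3), using eBayes with an intensity trend (residual degrees of freedom 4, prior 5.16), two-sided, adjusted by Benjamini-Hochberg over 7091 probe sets. The fit was tested on simulated data. A value with ± is a log2 change and its SE, or a signal and its SD over 3 arrays. Depth has no meaning for arrays, and their number limits the precision.

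Of 12422 probe sets, 10833 had 1 gene in the platform annotation, 396 several and 1193 none; only the first are named. The members, 33 gene lists and naming rule were chosen with earlier results of these data known. Named are Omp, Gap43, Neurog1, Pcna and Cd68, the 15 largest rises and 15 largest falls present on the 3 arrays of the higher group with groups that did not overlap, and up to 4 changed members per list with the smallest adjusted p (2 with the smallest p where none passed). Lists hold the brightest probe set per gene and received no test. Folds, lower bounds included, are differences of mean log2 signals turned back to ratios, so they differ from ratios of the mean signals. A fold against a group with no present call is a lower bound, with each array of that group set to the lowest signal that array called present where its own was below it. Promoter sequences are from RefSeq (GRCm38.p6).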

Additional observations from a re-analysis of the deposited data

How the results depend on the processing

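The 404 rises and 366 falls (770 in all) kept within 1.5 times of these counts with the OBX day 5 arrays left out of a 12-array fit, other filters, scales, centring, variance models and array weights. They moved to 163 and 172 (335) with all 15 arrays in the fit, to 82 and 106 (188) with scan day as a block, and to 59 and 70 (129) within the second scan day, where 1 day 1 array remained and was taken to vary like day 7. A scan day block with all 15 arrays, chosen after seeing the data, gave 26 and 24 (50). The 216 changed list genes became 104, 69, 50 and 19 under these 4 settings. Leaving out each replicate in turn gave 243 to 340 rises, 226 to 300 falls and 469 to 606 in all. The lowest counts came without OBX day 1 replicate 3 (243, 226 and 469), and without OBX day 7 replicate 1 there were 258 rises. The causes were not tested. A replicate block gave 345 rises and 287 falls; same-numbered pools deviated together with correlations of −0.049, 0.126 and 0.02, so the numbers were not taken as pairs. Of 116 named probe sets that passed, 0 turned direction under any of these settings, and 58 lost their call with scan day as a block. Where a setting only left out arrays or took scan day as a block, the direction was fixed, because the groups did not overlap. Depth does not apply to arrays.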

Other observations

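Mycn, a growth-promoting relative of Myc, was the 1 gene of the immediate early and stress list that rose. It had no present call at day 1, at a mean signal of 166.5, and reached 413.6 at day 7, at least 2.48-fold higher (adjusted p = 0.0021). Krt17, a keratin of injured epithelia, rose from 353.6 to 542.4 (0.62 ± 0.15, adjusted p = 0.030, and up to 0.11 with a replicate left out). Its mean at OBX day 5 was 1210, but those arrays were far apart, at 812.5, 439.3 and 2377. Bone and cartilage genes rose in 3 of 15 tested cases, among them Col11a2, a collagen chain of cartilage, by 0.70 ± 0.13 (adjusted p = 0.010). S100b, a calcium-binding protein of glia, rose by 0.86 ± 0.13, while Matn2, an adhesive matrix protein of ensheathing and Schwann cells, fell by 0.96 ± 0.17 (adjusted p = 0.0032 and 0.0068).

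Mbl2, a mannose-binding lectin of the complement system, was the fourth largest named fall, from 933.3, 758.8 and 874.3 at day 1 to 235.2, 347.1 and 144.5 at day 7 (−1.90 ± 0.28, adjusted p = 0.0028), and its untreated mean was 331.4. Ifi27l2a, an interferon-induced gene, rose 2.65-fold (adjusted p = 0.00069). Stbd1, a glycogen-binding protein, fell 2.88-fold (adjusted p = 3.4e-05).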
